A study of Mus musculus with 24 samples.

Results

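The 44 genes described here encode the proteasome, the barrel-shaped protease that degrades ubiquitin-tagged proteins, together with its regulators. They were chosen by gene name: 45 of the 24319 genes in each deposited table carried the Psma, Psmb, Psmc, Psmd, Psme, Psmf or Psmg stem with a number, once the 3 immunoproteasome subunits Psmb8, Psmb9 and Psmb10 were set aside, and 44 of these reached a value of 0.1 in at least 1 genotype. The gene left out was Psmb11, a catalytic subunit of the thymus, which was listed at 0 in all 8 groups. By role, the members are 8 alpha ring subunits, 7 beta ring subunits, 6 regulatory ATPases, 11 regulatory non-ATPases, 3 base assembly chaperones, 4 activators, 1 inhibitor and 4 core assembly chaperones. They lie on 16 chromosomes.

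RNA was sequenced from 24 samples of male mice aged 2 months, 12 from whole liver and 12 from isolated hepatocytes, with 3 samples in each of 8 groups. Within each tissue preparation the genotypes were Alb-Cre+;IkkBf/f (called IkkB KO here), Alb-Cre+;Shp2f/f (Shp2 KO), Alb-Cre+;IkkBf/f;Shp2f/f (Double KO) and Wild type (WT), all of the strain C57/BL6. IkkB (gene Ikbkb) is the kinase that switches on NF-κB signalling, and Shp2 (gene Ptpn11) is a tyrosine phosphatase that growth factor receptors need to activate Erk. The Cre recombinase is driven by the albumin promoter, which is active in hepatocytes and their precursors, so other liver cells keep both genes. The controls are labelled as wild type and not as Cre-negative littermates, so the presence of Cre and the deletions cannot be told apart in the comparisons with WT.

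In the proteasome, a core particle of stacked alpha and beta rings holds the proteolytic sites, and only Psmb5, Psmb6 and Psmb7 of the constitutive beta subunits are catalytic. A regulatory particle caps the core: its ATPase ring (Psmc genes) unfolds substrates and threads them in, while its non-ATPase subunits (most Psmd genes) bind and remove ubiquitin. Alternative caps (Psme genes) open the core without ubiquitin, dedicated chaperones (Psmg genes, Psmd5, Psmd9 and Psmd10) help the rings assemble, and interferon-γ replaces the catalytic subunits with Psmb8, Psmb9 and Psmb10. In hepatocytes, which secrete and renew large amounts of protein, subunit transcription is known to depend on Nfe2l1 and, under oxidative stress, on Nfe2l2 (Nrf2).

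The tables hold 1 value per gene and genotype, which by the convention of Cuffdiff is FPKM (a level per length of transcript, scaled to library size), and no value per sample. No SD can therefore be given, depth is unknown, and the authors' q-value is the only measure of replicate error. "Rose" and "fell" are used for members with a q-value under 0.05 in the authors' deposited table, which tested all 44 members in all 11 comparisons of genotypes used here (6 in liver, 5 in hepatocytes). Differences are on the log2(value + 1) scale, the first-named genotype minus the second. Since whole liver and hepatocytes were processed as separate tables, tests stay within a table. Ikbkb, checked against the labels, was listed at 9.48, 14.2 and 6.31 in IkkB KO, Shp2 KO and Double KO livers, against 15.7 in WT livers, and at 7.16, 15.1 and 5.29 in the same order in hepatocytes, against 17.3 in WT hepatocytes. Ptpn11 was listed at 10.1, 4.09 and 6.09 in IkkB KO, Shp2 KO and Double KO livers, against 12.5 in WT livers, and at 14.5, 4.47 and 5.77 in hepatocytes, against 16.3 in WT hepatocytes. Hnf4a, a transcription factor that defines hepatocytes, was listed at 172, 157 and 166 in IkkB KO, Shp2 KO and Double KO livers, against 201 in WT livers, and at 183, 186 and 165 in hepatocytes, against 194 in WT hepatocytes. Other hepatocyte markers went either way in liver. Of 7 tested against WT, 5 were listed higher and 2 lower in the IkkB KO. In the Shp2 KO and in the Double KO, 3 were listed higher and 4 lower, and 0 were called in each of these comparisons. In isolated hepatocytes, the marker Ttr was listed at 8130, 4469 and 7842 in IkkB KO, Shp2 KO and Double KO, against 8481 in WT. Ass1, another hepatocyte marker, was listed there at 1117, 1576 and 1188 in the same order, against 1299 in WT. Markers of other cells were also detected in both preparations. Summed over 11 macrophage markers, values were 334 in IkkB KO livers, 329 in Shp2 KO livers and 661 in Double KO livers, against 245 in WT livers, and 309, 242 and 308 in the same order in hepatocytes, against 101 in WT hepatocytes. In bulk RNA of this kind, fewer cells of a type and less RNA per cell cannot be told apart.

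Proteasome transcripts were abundant in every group, and the core was listed above the regulatory particle. The beta ring was the highest group. Its median value over 7 subunits was 173 in IkkB KO livers, 169.6 in Shp2 KO livers and 148 in Double KO livers, against 166 in WT livers; hepatocytes gave 132, 146.0 and 146.2, against 143 in WT hepatocytes. Psmb4, a structural beta subunit, was the highest core subunit in all 8 groups, between 203 in IkkB KO hepatocytes and 243 in Shp2 KO livers. Psmb5, which carries the chymotrypsin-like site, was the lowest beta subunit in 3 of the liver groups, and Psmb3 was the lowest in 3 of the hepatocyte groups.

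The alpha ring, which gates the entry to the core, ranged more widely. Psma7 was its highest member in all groups, at 167 in IkkB KO livers, 179 in Shp2 KO livers and 151 in Double KO livers, against 167 in WT livers. Psma5 was the lowest of the 7 ubiquitous alpha subunits in liver, at 41.3, 46.2 and 40.9 in IkkB KO, Shp2 KO and Double KO livers, against 42.5 in WT livers. Psma3 was the lowest in hepatocytes, at 18.4, 17.9 and 19.3 in IkkB KO, Shp2 KO and Double KO hepatocytes, against 18.6 in WT hepatocytes. Psma8, an alpha subunit of the testis, stayed between 0.303 and 0.678 in all 8 groups and is the one member near the threshold of 0.1.

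The 6 ATPases were listed at similar levels. Psmc3 was their highest in every group and Psmc6 their lowest, and the ratio of highest to lowest was 1.84 in IkkB KO livers, 1.94 in Shp2 KO livers and 1.61 in Double KO livers, against 1.77 in WT livers. Their median value was 73.9, 78.9 and 71.3 in IkkB KO, Shp2 KO and Double KO livers, against 77.7 in WT livers. Among the non-ATPase subunits, the deubiquitinase Psmd14, which strips ubiquitin chains from substrates, was the lowest in all 8 groups, at 30.3, 38.7 and 31.3 in IkkB KO, Shp2 KO and Double KO livers, against 37.0 in WT livers. The ubiquitin receptor Psmd4 was the highest in 3 of the liver groups, with 107 in IkkB KO livers and 123 in Shp2 KO livers, against 109.7 in WT livers. Psmd8, a subunit of the lid, was the highest in Double KO livers, at 106, and in all hepatocyte groups.

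Regulators and chaperones were listed lower, apart from one pair. Psme1 and Psme2, which together form the interferon-inducible activator ring, stood at the level of the core, while Psme3, a nuclear activator, and Psme4, a single-chain activator, stayed at or below 28.0 in every group. Psmf1, which encodes a proteasome inhibitor, was listed at 11.3, 11.7 and 10.1 in IkkB KO, Shp2 KO and Double KO livers, against 11.4 in WT livers. Psmd10, the base chaperone also known as gankyrin, was the lowest of the base chaperones, at 8.57, 9.55 and 8.94 in IkkB KO, Shp2 KO and Double KO livers, against 10.04 in WT livers.

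**Figure D1:**
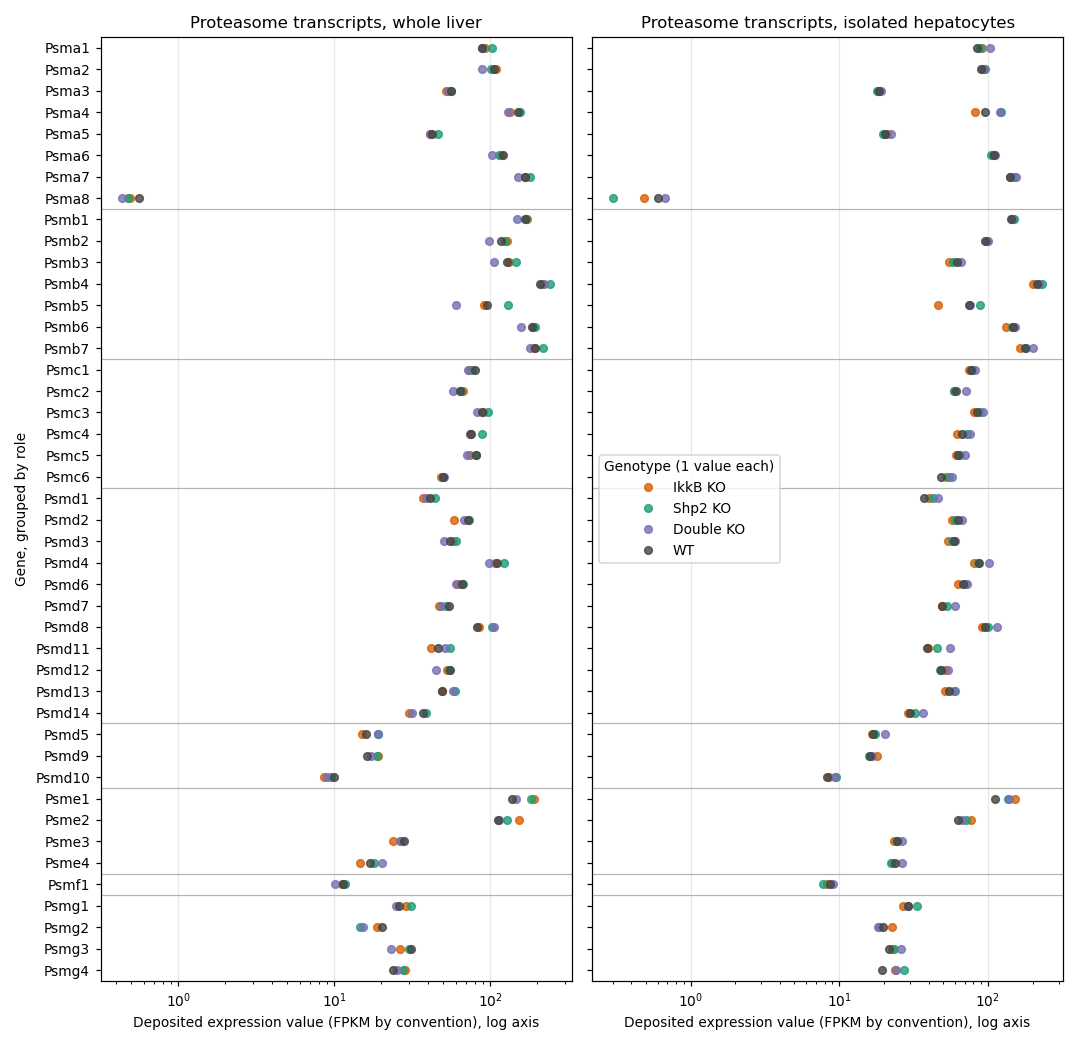
Deposited value of each of the 44 members (log axis, FPKM by convention) in whole liver (left) and isolated hepatocytes (right). Each point is the single value of 1 genotype and lines separate the role groups; the 4 points of most members lie close together, and Psmb5 is the widest in liver.

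Genotype moved these levels little. The highest of the 4 genotypes exceeded the lowest by a median ratio of 1.20 over the 44 members in liver and 1.18 in hepatocytes, beside 1.34 and 1.30 over all 11164 and 10807 genes with a value of at least 1. Members and all genes were not matched for level, and the part of abundance in this gap was not tested. In liver, Psmb5 was the sole member at 1.5-fold or more, with a ratio of 2.14, and the other 43 stayed under it. In hepatocytes 2 members reached 1.5-fold: Psmb5 at 1.92 and the barely detected Psma8 at 2.24. Of all genes, 33.4% in liver and 30.6% in hepatocytes spanned 1.5-fold or more.

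Psmb5 fell in Double KO livers. Its value was 90.7 in IkkB KO livers, 129.5 in Shp2 KO livers and 60.7 in Double KO livers, against 95.1 in WT livers. The Double KO thus had the lowest value and the Shp2 KO the highest, with the IkkB KO near WT. In the authors' deposited table, Psmb5 in Double KO livers differed by -0.64 from WT livers (q = 0.0124), by -0.57 from IkkB KO livers (q = 0.0315) and by -1.08 from Shp2 KO livers (q = 0.000955). The last of these q-values is the smallest in that table. Against WT, neither the Shp2 KO difference of 0.44 (q = 0.108) nor the IkkB KO difference of -0.07 (q = 0.927) passed in the authors' deposited table, and Shp2 KO over IkkB KO livers, at 0.51, missed the threshold with a q-value of 0.0524 there.

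The hepatocyte table placed the fall of Psmb5 in another genotype. Psmb5 was listed at 46.4 in IkkB KO hepatocytes, 89.1 in Shp2 KO hepatocytes and 75.9 in Double KO hepatocytes, against 74.6 in WT hepatocytes. Here the IkkB KO was the lowest, and the Double KO lay beside WT. The authors' deposited table gives a difference of -0.67 for IkkB KO against WT hepatocytes (q = 0.00913), of 0.70 for Double KO against IkkB KO hepatocytes (q = 0.00442), and of 0.02 for Double KO against WT hepatocytes (q = 0.963). Whether the Double KO effect differs between liver and hepatocytes was not tested, since the tables hold no replicates. Added together, the differences of the single knockouts from WT came to 0.37 in liver, where the Double KO difference was -0.64, and to -0.42 in hepatocytes, where it was 0.02; no test of this gap could be made.

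Markers of other cells moved with both falls. All 11 macrophage markers rose in Double KO livers and in IkkB KO hepatocytes against WT, and so did 5 of 9 stellate cell and fibroblast markers in Double KO livers and 9 of 9 in IkkB KO hepatocytes. The 9 stellate markers summed to 203 in Double KO livers, against 105 in WT livers, and to 149 in IkkB KO hepatocytes, against 40.2 in WT hepatocytes. Endothelial markers, 9 in all, summed to 94.9 in Double KO livers, against 96.2 in WT livers, and to 87.9 in IkkB KO hepatocytes, against 44.9 in WT hepatocytes. No marker of these lists was at 0 in any group. Double KO hepatocytes, where Psmb5 lay beside WT, had a macrophage sum of 308, against 101 in WT hepatocytes. The part of other cells in the Psmb5 values was not tested.

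The remaining catalytic subunits did not pass the threshold in any of the 11 comparisons. Psmb6, which carries the caspase-like site, was listed at 188, 193 and 158 in IkkB KO, Shp2 KO and Double KO livers, against 185 in WT livers, and at 132, 146.0 and 152 in the same order in hepatocytes, against 147 in WT hepatocytes. Psmb7, which carries the trypsin-like site, was listed at 189.8, 219 and 179 in IkkB KO, Shp2 KO and Double KO livers, against 193 in WT livers, and at 164, 180.4 and 201 in hepatocytes, against 178 in WT hepatocytes. The balance of catalytic transcripts therefore varied with Psmb5: its ratio to Psmb6 was 0.482 in IkkB KO livers, 0.673 in Shp2 KO livers and 0.383 in Double KO livers, against 0.515 in WT livers. The hepatocyte ratio was 0.350 for the IkkB KO, 0.610 for the Shp2 KO and 0.4996 for the Double KO, against 0.507 for WT.

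Psmb5 is a protein-coding gene at chr14:54614119-54618022 on the minus strand (GRCm38), Psmb6 lies at chr11:70525367-70527858 on the plus strand and Psmb7 at chr2:38588036-38644087 on the minus strand. The annotation also lists processed pseudogenes of Psmb5, Psmb6 and Psmb7 that the deposited tables do not list, and how reads shared with such copies were counted is not given in the sources used here, so the values of these 3 genes are uncertain to that extent. The start regions of Psmb5 and Psmb6 are shown because both genes encode catalytic subunits of the beta ring and both windows hold the same short motif. Each window runs from 250 bases before to 50 bases after the gene start in RefSeq (GRCm38.p6), at chr14:54617946-54618245 on the minus strand for Psmb5 and chr11:70525107-70525406 on the plus strand for Psmb6, and capitals mark the match to TGACNNNGC, the core of the antioxidant response element.
Psmb5: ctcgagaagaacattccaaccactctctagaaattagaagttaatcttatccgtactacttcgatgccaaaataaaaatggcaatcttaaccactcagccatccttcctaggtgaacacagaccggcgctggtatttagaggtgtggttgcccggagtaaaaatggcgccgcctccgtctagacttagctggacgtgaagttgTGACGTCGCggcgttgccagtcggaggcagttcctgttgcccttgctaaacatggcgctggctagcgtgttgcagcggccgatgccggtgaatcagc
Psmb6: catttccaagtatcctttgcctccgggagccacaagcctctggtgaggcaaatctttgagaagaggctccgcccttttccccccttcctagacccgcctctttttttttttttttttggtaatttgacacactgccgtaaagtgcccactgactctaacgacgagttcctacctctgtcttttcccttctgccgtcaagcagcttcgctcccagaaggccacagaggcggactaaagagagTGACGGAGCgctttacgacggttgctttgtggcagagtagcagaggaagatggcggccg

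The match begins 47 bases before the gene start in Psmb5 and 9 bases before it in Psmb6. The bases after this start were found in an annotated transcript for Psmb5 but not for Psmb6. Of the 44 members, 36 had such windows in the table (39 windows, as some genes have several starts). Psmb7, also a catalytic subunit, was among the 8 members without a window and was not searched. Searched on both strands, TGACNNNGC was found in windows of 6 members: Psmb5, Psmb6, Psmc6, Psmd12, Psmd9 and Psme4. That is 15.4% of the member windows, beside 12.4% of all 32851 windows. The CCAAT box was found in 12 members, 30.8% of the member windows beside 37.4% of all. Matches of this kind describe letters in a window and say nothing of binding.

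In whole liver, no comparison called more than 1 of the 44 members. In IkkB KO against WT livers Cuffdiff called 0 members, beside 4.54% of 12484 tested genes. Psme1 and Psme2 had an unadjusted p under 0.05 there, as did 10.0% of all genes. In Shp2 KO against WT livers it called 0 members, beside 9.33% of 12588 genes; 3 members (Psmb5, Psme1 and Psmg2) had an unadjusted p under 0.05, as did 17.3% of all genes. Psmb5 alone passed in Double KO livers against WT, where 18.1% of 12940 genes were called and 2 members and 30.4% of genes had an unadjusted p under 0.05. It was again the 1 member called against the IkkB KO (19.0% of 12925 genes called, with 4 members and 31.4% of genes at an unadjusted p under 0.05) and against the Shp2 KO (10.8% of 12878 genes called, with 2 members and 20.7% of genes). A single member is 2.27% of the 44. In Shp2 KO against IkkB KO livers Cuffdiff called 0 members, beside 10.3% of 12605 genes, and Psmb5 and Psmd11 had an unadjusted p under 0.05, as did 18.5% of all genes.

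The role groups of the liver tables kept close to WT. In Double KO livers, 32 of 44 members were listed lower than in WT and 12 higher, with a median difference of -0.11, beside -0.03 over all tested genes. The beta ring had the lowest median of the subunit groups there, -0.22, with 6 of 7 subunits listed lower, while the ATPases had -0.13 with 5 of 6 lower, the alpha ring -0.13 with 7 of 8 lower, and the non-ATPases -0.11 with 8 of 11 lower. Psmd8 had the largest positive difference, 0.35, with 106 in Double KO livers against 82.8 in WT livers (q = 0.256 in the authors' deposited table). Shp2 KO livers were listed higher than WT in 32 of 44 members, with a median of 0.09 beside -0.03 over all genes, and all 7 beta subunits were among them. IkkB KO livers had a median of -0.04 beside -0.01 over all genes, and the largest negative difference was that of the base scaffold Psmd2, -0.29, with 58.9 in IkkB KO livers against 72.2 in WT livers. These 3 comparisons share the WT samples.

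Set directly against each other, Double KO and Shp2 KO livers showed the widest separation of the members. The Double KO was listed lower in 40 of 44 members, with a median difference of -0.18, beside 0.00 over all tested genes, of which 49.5% were listed higher. Only Psmb5 of these 40 passed the test. In the same comparison 10 of 11 macrophage, 4 of 9 endothelial and 3 of 9 stellate markers rose, and all of these markers were listed higher in the Double KO; their part in the member values was not tested. Psmb3, a structural beta subunit, was the next by difference, at 106 in Double KO livers against 146 in Shp2 KO livers (-0.45, q = 0.0970 in the authors' deposited table). Of the 4 genotypes in liver, the Shp2 KO was the highest for 23 members and the Double KO the lowest for 24. Such ranks were not counted over all genes, and the members share their libraries, so they are not independent.

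**Figure D2:**
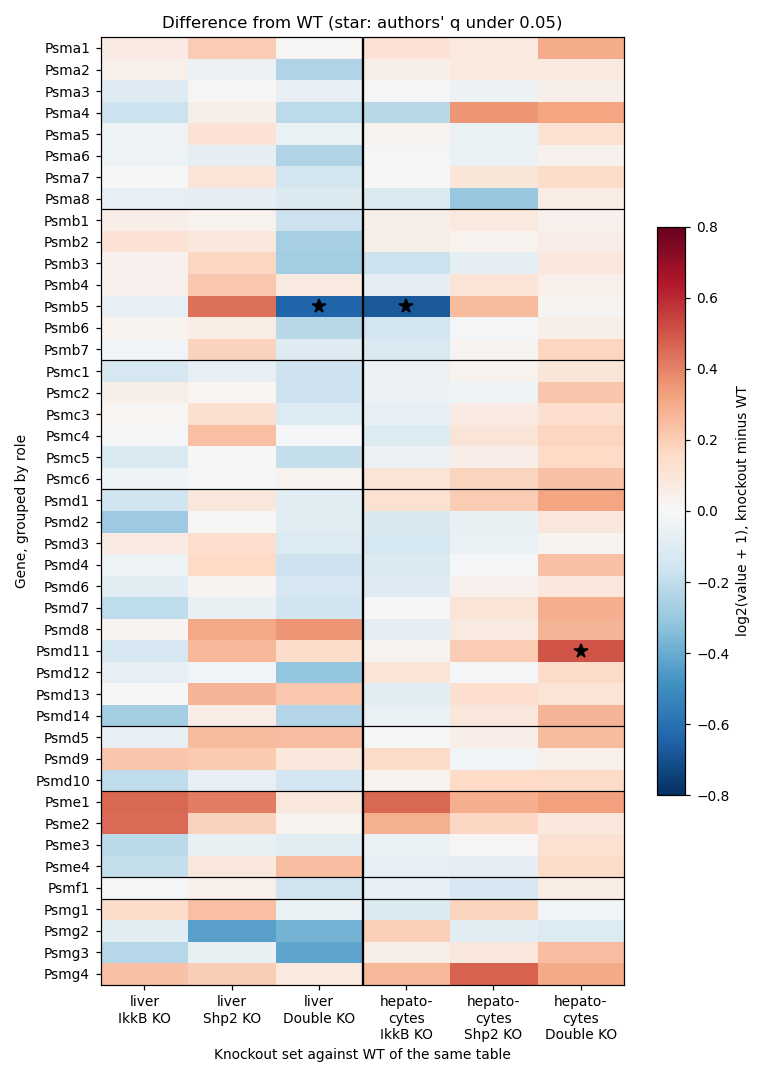
Difference of each member from WT of the same table (colour, log2(value + 1), knockout minus WT), with members in rows by role and the 6 knockout groups in columns. Stars mark members with a q-value under 0.05: Psmb5 in Double KO livers and IkkB KO hepatocytes, and Psmd11 in Double KO hepatocytes.

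In isolated hepatocytes the members leaned the other way in the Double KO. There 42 of 44 were listed higher than in WT, with a median difference of 0.13, beside 0.01 over all tested genes, of which 51.9% were listed higher. All 8 alpha, 7 beta, 6 ATPase and 11 non-ATPase subunits were among them, and the non-ATPase median, 0.23, was the highest of these groups. By the test, 1 member passed (Psmd11), or 2.27%, where 13.6% of 12174 tested genes did; Psmd11 was also the 1 member with an unadjusted p under 0.05, beside 20.1% of genes. The Double KO was the highest of the 4 genotypes for 31 members in hepatocytes, and WT was the highest for none. These ranks, too, were not counted over all genes. In the Double KO samples, 11 of 11 macrophage markers, 7 of 9 endothelial markers and 6 of 9 stellate markers had also risen against WT, and the endothelial sum was 79.5 in Double KO hepatocytes, against 44.9 in WT hepatocytes. Their part in the member values was not tested.

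Psmd11, a lid subunit that joins the regulatory particle to the core, rose in Double KO hepatocytes. It was listed at 39.9 in IkkB KO hepatocytes, 45.2 in Shp2 KO hepatocytes and 55.8 in Double KO hepatocytes, against 39.0 in WT hepatocytes. The authors' deposited table gives a difference of 0.50 from WT with a q-value of 0.0495, just inside the threshold; adjusted within that comparison alone, the value was 0.0900, which does not pass. In liver Psmd11 was listed at 41.7, 55.5 and 51.1 in IkkB KO, Shp2 KO and Double KO livers, against 46.0 in WT livers, and no liver comparison passed. The gene lies at chr11:80428615-80473248 on the plus strand (GRCm38).

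Psma4, an alpha ring subunit at chr9:54950790-54958030 on the plus strand (GRCm38), rose in Double KO over IkkB KO hepatocytes. Its values were 82.6 in IkkB KO hepatocytes, 123 in Shp2 KO hepatocytes and 120.2 in Double KO hepatocytes, against 96.3 in WT hepatocytes. The Shp2 KO and the Double KO lay together above WT and the IkkB KO below it. Double KO over IkkB KO hepatocytes gave 0.54 with a q-value of 0.0411 in the authors' deposited table, and 0.0916 when adjusted within that comparison. None of the knockouts differed from WT hepatocytes past the threshold, and in liver Psma4 was listed at 134, 156 and 130.4 in IkkB KO, Shp2 KO and Double KO livers, against 151 in WT livers.

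Double KO over IkkB KO hepatocytes was the comparison with the most members called: Psma4 and Psmb5, 2 of 44 or 4.55%, where 11.4% of 12321 tested genes were called; 3 members and 17.2% of genes had an unadjusted p under 0.05. The member median was 0.18 beside -0.01 over all genes, and 39 of 44 were listed higher in the Double KO. Against WT, IkkB KO hepatocytes had 1 member called, Psmb5, where 9.41% of 12135 tested genes were called, and a median of -0.04. There 2 members and 13.9% of genes had an unadjusted p under 0.05. In Shp2 KO against WT hepatocytes Cuffdiff called 0 members, beside 11.7% of 12076 genes, and 0 members had an unadjusted p under 0.05, beside 17.4% of genes; the median was 0.06. The largest positive difference there was that of Psmg4, a core assembly chaperone, at 27.4 in Shp2 KO hepatocytes against 19.5 in WT hepatocytes (0.47, q = 0.218 in the authors' deposited table). Against the Shp2 KO, Double KO hepatocytes had 0 members called by Cuffdiff, beside 6.76% of 12250 genes, and Psma8 alone had an unadjusted p under 0.05, beside 11.5% of genes.

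**Figure D3:**
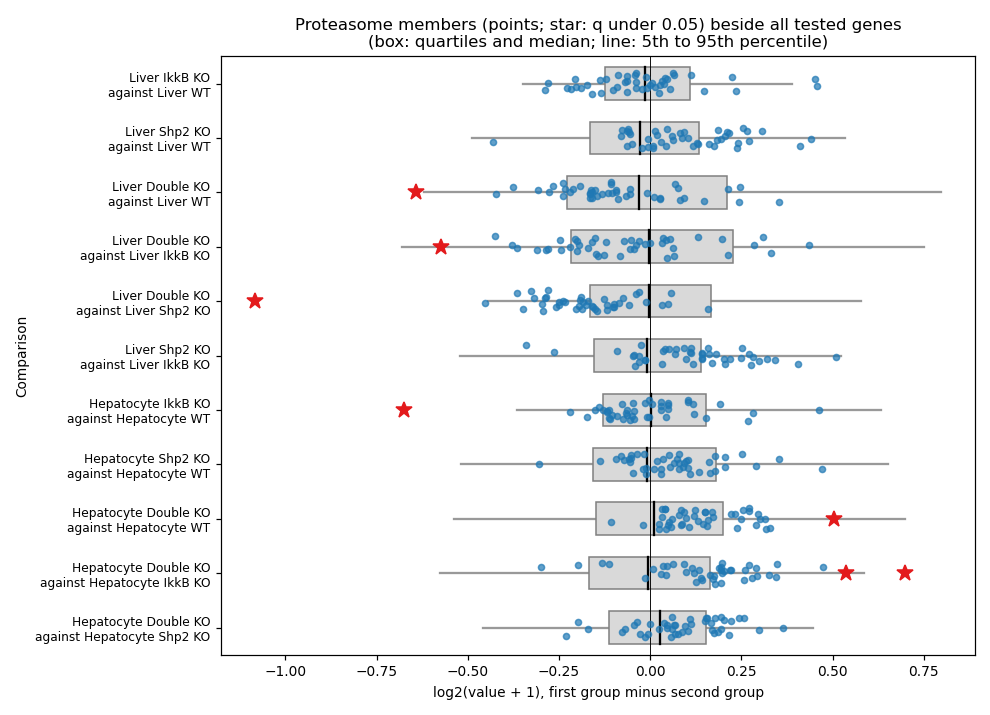
Differences of the 44 members (points, stars for q under 0.05) in each of the 11 comparisons, beside quartiles, median and the range from the 5th to the 95th percentile of all tested genes (horizontal axis, log2(value + 1), first group minus second). Most members lie inside the range of all genes; the members sit mostly below 0 in Double KO against Shp2 KO livers and mostly above 0 in Double KO against WT hepatocytes.

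Among the activators, Psme1 and Psme2 were listed highest in the IkkB KO of both tables without passing the threshold. Psme1 had 189.9 in IkkB KO livers, 184 in Shp2 KO livers and 147 in Double KO livers, against 138 in WT livers, and 153, 136 and 139.8 in the same order in hepatocytes, against 111 in WT hepatocytes. The IkkB KO differences from WT were 0.46 in both tables, and the authors' deposited tables give q-values of 0.161 for liver and 0.131 for hepatocytes. Psme2 was listed at 154 in IkkB KO livers, 128 in Shp2 KO livers and 114 in Double KO livers, against 112 in WT livers, with a difference of 0.45 for IkkB KO over WT (q = 0.103 in the authors' deposited table). Its retrocopy Psme2b, which may share reads with it, stayed at or below 2.78 in all groups. Psme4 ran in a different order in liver, at 14.7, 18.0 and 20.2 in IkkB KO, Shp2 KO and Double KO livers, against 16.9 in WT livers; Double KO over IkkB KO livers, at 0.44, was its largest difference (q = 0.0952 in the authors' deposited table).

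The chaperones gave no call. Psmg3, a core assembly chaperone, was listed at 26.6, 30.0 and 23.1 in IkkB KO, Shp2 KO and Double KO livers, against 31.3 in WT livers, and its Double KO difference of -0.42 had a q-value of 0.159 in the authors' deposited table. Psmg2, which acts with Psmg1 in alpha ring assembly, was listed at 18.8, 14.6 and 15.3 in IkkB KO, Shp2 KO and Double KO livers, against 20.1 in WT livers, with a Shp2 KO difference of -0.43 (q = 0.147 in the authors' deposited table). Both differences had an unadjusted Cuffdiff p under 0.05, as did 30.4% of all genes in Double KO livers and 17.3% in Shp2 KO livers. The base chaperone Psmd5 was listed at 15.1, 19.2 and 19.0 in IkkB KO, Shp2 KO and Double KO livers, against 15.9 in WT livers, and 0 comparisons passed.

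The immunoproteasome subunits, which replace Psmb6, Psmb7 and Psmb5 in interferon-treated cells and are not members, rose in the IkkB KO of both tables, 3 of 3 in each. Psmb8, the counterpart of Psmb5, was listed at 78.2, 31.2 and 38.4 in IkkB KO, Shp2 KO and Double KO livers, against 36.2 in WT livers, and at 93.3, 36.0 and 39.7 in hepatocytes, against 49.6 in WT hepatocytes. Psmb9, the counterpart of Psmb6, was listed at 84.8, 25.5 and 27.9 in IkkB KO, Shp2 KO and Double KO livers, against 33.7 in WT livers, and at 108, 38.1 and 40.6 in hepatocytes, against 51.3 in WT hepatocytes. Psmb10, the counterpart of Psmb7, was listed at 79.9, 43.4 and 48.7 in IkkB KO, Shp2 KO and Double KO livers, against 47.9 in WT livers.

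The ratio of Psmb8 to Psmb5 was 0.862 in IkkB KO livers, 0.240 in Shp2 KO livers and 0.633 in Double KO livers, against 0.380 in WT livers. In IkkB KO hepatocytes it reached 2.01, the one group in which Psmb8 exceeded Psmb5, with 0.404 in Shp2 KO and 0.523 in Double KO hepatocytes, against 0.664 in WT hepatocytes. All 3 immunoproteasome subunits fell in Double KO against IkkB KO in both tables and in Shp2 KO against IkkB KO livers. Of 16 other interferon-γ targets, 11 rose in IkkB KO livers and 7 in IkkB KO hepatocytes, among them Gbp3, a guanylate-binding protein, at 9.09 in IkkB KO livers against 2.89 in WT livers, and the immune GTPase Igtp, at 92.2 in IkkB KO livers against 20.5 in WT livers. In Shp2 KO hepatocytes 6 of the 16 fell, and 0 rose. Markers of other cells moved as well. In IkkB KO against WT livers, 2 of 11 macrophage, 0 of 9 endothelial, 0 of 9 stellate and 1 of 9 tested lymphocyte markers (Cd8a) rose, and 1 stellate marker fell. In IkkB KO against WT hepatocytes, 11 of 11 macrophage, 9 of 9 endothelial and 9 of 9 stellate markers rose, and 0 of 3 tested lymphocyte markers passed. Lymphocyte markers fell in Shp2 KO against IkkB KO livers (4 of 9) and in Double KO against IkkB KO in liver (2 of 9, Cd4 and Cd8a) and in hepatocytes (2 of 3). The 10 lymphocyte markers summed to 9.79, 4.74 and 9.78 in IkkB KO, Shp2 KO and Double KO livers, against 7.66 in WT livers, and to 2.80, 1.31 and 0.990 in hepatocytes, against 1.02 in WT hepatocytes. The part of these cells in the immunoproteasome values was not tested.

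**Figure D4:**
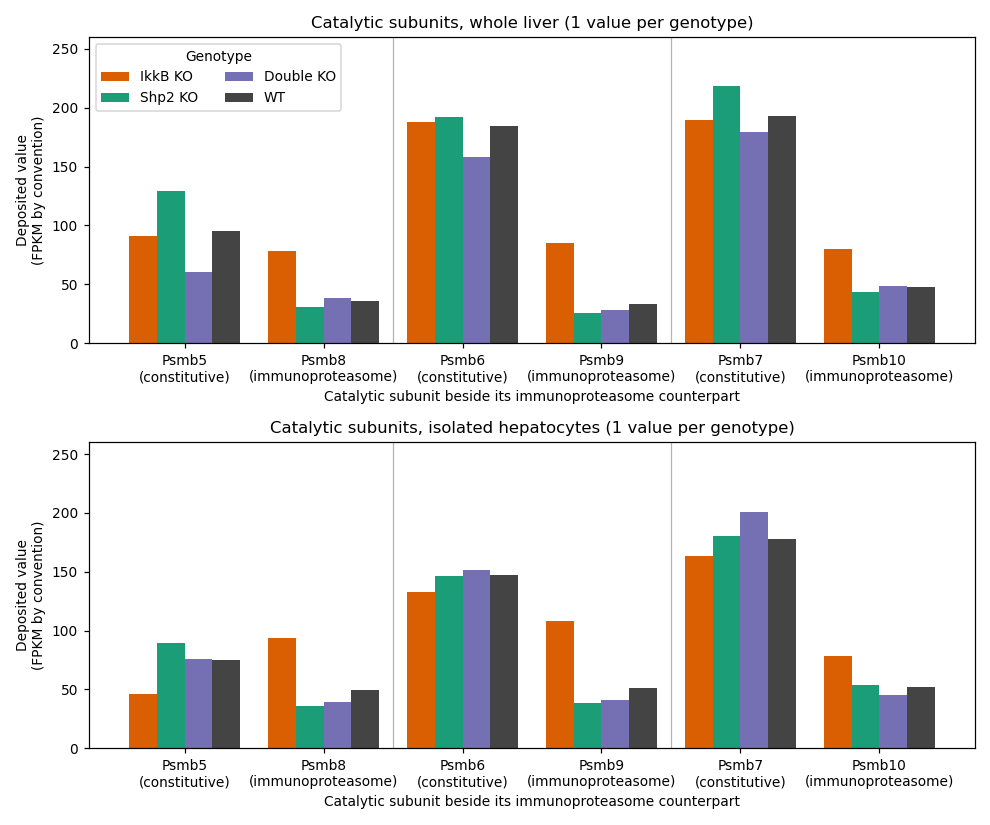
Deposited values (FPKM by convention, 1 bar per genotype, no error available) of the 3 constitutive catalytic subunits, each beside its immunoproteasome counterpart, in whole liver (top) and isolated hepatocytes (bottom). Psmb8, Psmb9 and Psmb10 are highest in the IkkB KO of both tables, and Psmb5 is lowest in Double KO livers and IkkB KO hepatocytes.

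Of 16 further genes that work beside the proteasome, among them the core assembly factor Pomp and the deubiquitinases Uchl5 and Usp14, 0 were called by Cuffdiff in any knockout against WT in either table; 2 were listed higher in Shp2 KO livers, 3 in Double KO livers and 1 in Double KO hepatocytes with an unadjusted p under 0.05, where 17.3%, 30.4% and 20.1% of all tested genes had one.

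Of 9 transcription factors and partners known to drive proteasome genes, 1 rose in IkkB KO livers and 1 in Double KO hepatocytes, where 4.54% and 13.6% of all tested genes were called. In each of the other 4 comparisons with WT, Cuffdiff called 0 of the 9, and 1 had an unadjusted p under 0.05, as did between 13.9% and 30.4% of all genes. Nfe2l1 was listed at 32.1, 41.5 and 35.7 in IkkB KO, Shp2 KO and Double KO livers, against 31.9 in WT livers. Nfe2l2 rose to 31.7 in Double KO hepatocytes, against 22.1 in WT hepatocytes (q = 0.0478 in the authors' deposited table, just inside the threshold). It was listed nearly as high in IkkB KO and Shp2 KO hepatocytes, at 29.1 and 30.1, without passing. Maff, a small partner of Nfe2l1 and Nfe2l2, rose to 5.23 in IkkB KO livers, against 3.15 in WT livers. Of 14 tested Nrf2 targets, 8 rose and 1 fell in Shp2 KO livers, 6 rose and 1 fell in Double KO livers, and 1 rose in IkkB KO livers, all against WT. In hepatocytes 8 rose and 1 fell in the Shp2 KO, 8 rose in the Double KO and 4 rose in the IkkB KO. Gstm3, a glutathione transferase, had 236 in Shp2 KO livers and 349 in Double KO livers, against 62.0 in WT livers, and 129 in Shp2 KO hepatocytes and 194 in Double KO hepatocytes, against 29.6 in WT hepatocytes.

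Levels of the members ran alike in the preparations, with a few exceptions that held in every genotype. Across the 44 members, log2(value + 1) in hepatocytes and liver had a Pearson correlation between 0.96 and 0.97 in each genotype, as a description across genes that share their libraries. The median ratio of hepatocyte to liver value was 0.929 in the IkkB KO, 0.870 in the Shp2 KO and 1.07 in the Double KO, against 0.871 in WT. Psma3 stood lowest, with a ratio of 0.353, 0.319 and 0.361 in the IkkB KO, Shp2 KO and Double KO, against 0.332 in WT. Psmb3 had 0.414, 0.400 and 0.618 in the IkkB KO, Shp2 KO and Double KO, against 0.478 in WT, and Psma5 had 0.506, 0.426 and 0.546, against 0.481 in WT. Psma3 and Psma5 are alpha ring subunits and Psmb3 is a beta ring subunit. The activator Psme2 had 0.502, 0.555 and 0.587 in the IkkB KO, Shp2 KO and Double KO, against 0.564 in WT. At the other end, Psme4 had 1.53, 1.25 and 1.30 in the IkkB KO, Shp2 KO and Double KO, against 1.40 in WT. The tables were made separately and the RNA was extracted with different kits, so these ratios were not tested and the preparations and their processing cannot be told apart.

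**Figure D5:**
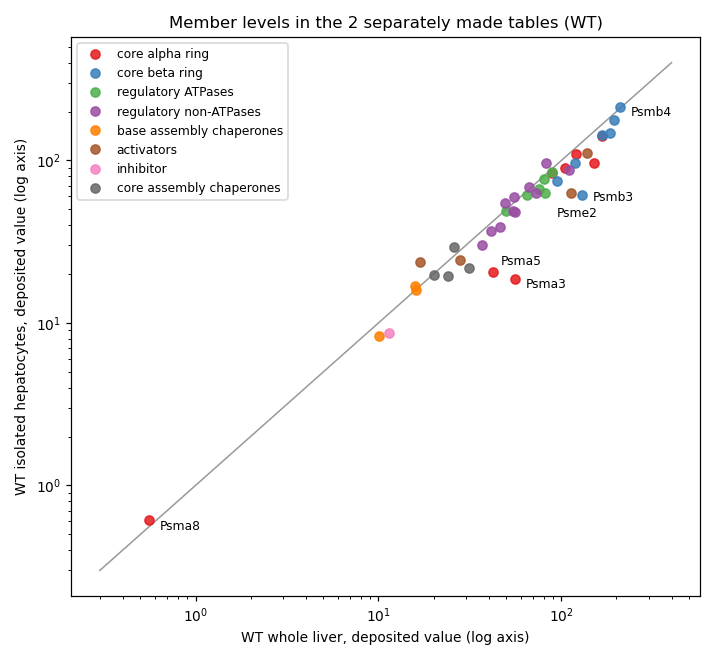
Value of each member in WT isolated hepatocytes (vertical log axis) against WT whole liver (horizontal log axis), coloured by role, with the line of equal values in grey. Psma3 lies farthest below the line, followed by Psmb3, Psma5 and Psme2.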

How the data were processed

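PolyA RNA was sequenced from 24 samples. Per the submitters' processing notes, FastQC and Cuffdiff were used, with the mouse build mm9; aligner, annotation, strand setting and versions stay unknown (not given in the sources used here). The authors deposited 1 expression value for each gene in each genotype, whose header names no unit (other); FPKM is the convention of Cuffdiff. Each p-value and q-value is from the authors' own Cuffdiff test, per the file headers. There were 0 columns per replicate, so depth is unknown and no SD, interval or test of samples was computed.

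Members and gene lists were chosen with earlier results of these data known. Genes were tested where Cuffdiff gave a test and 1 of the 2 genotypes had a value of at least 0.1, and called at a q-value under 0.05. Differences used a pseudocount of 1. Named were members that passed, catalytic subunits, the highest and lowest member of most roles, and the largest difference of a sign in some comparisons but not all. Further members were named as examples. Of other lists, up to 6 genes that passed could be named. Marker lists were of macrophages, endothelium, stellate cells and fibroblasts, bile duct, lymphocytes and hepatocytes. Of 10 hepatocyte markers, 3 (Apoa1, Serpina1c and Trf) were too abundant for Cuffdiff to test in some comparisons and were listed at 0 in some groups, so no hepatocyte marker sum is given. Shp2 KO against IkkB KO hepatocytes was not analysed here, and a few results of other genes are not reported here. Promoter windows came from RefSeq (GRCm38.p6), gene places from GENCODE (GRCm38). Alternatives were a q-value under 0.01, adjustment within a comparison, minimum values of 1 or none, a log2 ratio of at least 0.5, a pseudocount of 0.1 and centring on the median of all genes. The adjustment was tested on simulated p-values. Python 3.11.15, pandas 2.3.3, numpy 2.4.6, scipy 1.17.1 and matplotlib 3.10.9 were used.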

Additional observations from a re-analysis of the deposited data

How the results depend on the processing

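At a q-value under 0.01, the members called were 0 in Double KO against WT livers, 0 in Double KO against IkkB KO livers, 0 in Double KO against WT hepatocytes and 1 (Psmb5) in Double KO against IkkB KO hepatocytes. With p-values adjusted within the comparison, the count was 0 in Double KO against WT hepatocytes, where Psmd11 had 0.0900, and 1 in Double KO against IkkB KO hepatocytes, where Psma4 had 0.0916. The other 49 counts of members, over the alternatives named above, stayed within the tolerance of 1.5-fold. All 33 medians stayed within 0.1 on the log2 scale. Many of these counts could not move. The other minimum values kept the deposited q-values, and Psma8, the only member below a value of 1, was never called. A count of 0 could not change at a q-value under 0.01 or under the log2 ratio limit. Directions of Psmb5, Psma4 and Psmd11 were not put to a test, because a pseudocount cannot reverse the sign of a difference. No paired analysis was possible because the tables hold 1 value per genotype and carry no replicate; leaving out single replicates was not run for the same reason. Depth and spread between samples are unknown, so a difference that missed the threshold is not shown to be absent.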

Other observations

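Values of bile duct markers also varied between groups. The 6 bile duct markers summed to 33.6 in IkkB KO livers, 45.9 in Shp2 KO livers and 143 in Double KO livers, against 57.4 in WT livers, and to 27.2, 40.6 and 57.5 in the same order in hepatocytes, against 14.5 in WT hepatocytes. Most of each sum was Spp1, at 137 in Double KO livers against 52.5 in WT livers. Of 5 markers tested in that comparison, Spp1 alone was called, 4 were listed higher and 1 (Sox9) lower, at 0.780 against 1.18.

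Ribosomal protein genes had far lower values in the hepatocyte table than in the liver table. Over 75 ribosomal protein genes with a liver value of at least 1, the median ratio of hepatocyte to liver value was 0.195 in the IkkB KO, 0.240 in the Shp2 KO and 0.244 in the Double KO, against 0.195 in WT, beside 0.953 over all 10490 such genes in WT. Of the 43 members with such a liver value, Psma3, Psma5 and Psmb3 had a ratio below 0.5 in the Shp2 KO and in WT. Of all such genes, 6.97% in the Shp2 KO and 10.1% in WT had one. The cause was not tested.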
